A study of Mus musculus with 63 samples.

Results

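The 10 genes described here encode the enzymes of the urea cycle (Nags, Cps1, Otc, Ass1, Asl and Arg1) and of serine, histidine and tyrosine breakdown (Sds, Hal, Tat and Hpd). They were taken by gene symbol from a liver RNA-seq table of 15616 genes, and all 10 were present and above the filter on low values. The table holds 63 libraries, each from the liver of 1 mouse aged 10 to 14 weeks, collected on days 0 to 14 of a tamoxifen course of 3 injections of 1 mg per mouse at intervals of 24 hours, beginning on day 0. The 26 KO males were Alb-Cre-ERT2tg; Hcfc1 lox/Y animals (labelled Hcfc1 hepKO/Y), in which tamoxifen switches on a Cre recombinase made from the albumin promoter and the X-linked Hcfc1 gene is cut. The 12 Het females were Alb-Cre-ERT2tg; Hcfc1 lox/+ animals (labelled Hcfc1hepKO/+) and kept an intact allele. Which allele of this X-linked gene each hepatocyte expressed was not measured. The 25 WT males were Hcfc1 lox/Y mice without Cre by the protocol, while their genotype label reads C57BL/6; they received tamoxifen as well. The authors' sample table gives every group as untreated on day 0 and treated from day 1. Cells of the liver other than hepatocytes keep Hcfc1 in this model, and, as WT males lacked the Cre, its action and the loss of Hcfc1 cannot be told apart. Males had 2 libraries per genotype and day on days 0 to 9 and 1 on days 10 to 14, apart from 2 KO libraries on day 14. Females had 1 library on each of 12 days, and no WT females were analysed.

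Ammonia released from amino acids is toxic, and the liver turns it into urea in the hepatocytes around the portal vein. NAGS makes N-acetylglutamate, the activator of CPS1, which joins ammonia and bicarbonate to carbamoyl phosphate; OTC then forms citrulline, also in mitochondria. In the cytosol ASS1 and ASL convert citrulline to arginine, and ARG1 splits arginine into urea and ornithine. SDS deaminates serine, HAL opens histidine breakdown, TAT is the glucocorticoid-induced first enzyme of tyrosine breakdown and HPD the next one. HCF-1, the product of Hcfc1, is a nuclear cofactor that joins transcription factors on promoters with enzymes that modify chromatin.

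Estimated library depth was 21.5 to 56.7 M reads in KO, 24.4 to 46.4 M in Het and 17.8 to 52.8 M in WT livers. The fewest estimated reads of any of the 10 genes, about 359, were those of Sds in a KO library of day 14. Counting error is therefore small beside the spread between mice. Levels are given as scaled RPKM, the deposited RPKM with each library's median tested gene set equal, and differences as log2 of KO over WT on that scale, with a standard error. The centring matters because the median gene in the deposited values lay higher in KO than in WT livers by 0.23, 0.33, 0.23 and 0.85 (log2) in the windows of days 1 to 2, 3 to 5, 6 to 9 and 10 to 14. A gene counts as called when limma's Benjamini-Hochberg adjusted p was under 0.05 with the same sign on both the centred and the deposited scale, a rule that undercounts falls when the median gene is shifted upward. Hcfc1 itself had 7.88 and 8.32 scaled RPKM in KO livers and 6.40 and 8.34 in WT livers on day 0, but 13.1 to 17.5 in KO livers and 6.57 to 8.78 in WT livers on days 3 to 5 (1.07 ± 0.12). It was also higher in KO livers on days 6 to 9 (1.03 ± 0.10) and 10 to 14 (1.11 ± 0.12). A gene-level value that pools all exons does not measure the deletion, so the genotypes rest on the labels. In whole liver, fewer cells of a type and less RNA per cell cannot be told apart.

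In the 25 WT livers Ass1 was the strongest of the 10 genes, with a mean of 2267 ± 550 scaled RPKM (SD). Hpd (890.0 ± 170.3), Arg1 (606 ± 127) and Cps1 (600.4 ± 166) followed, and Arg1 and Cps1 differed by far less than their SD. Tat averaged 416 ± 114, Asl 318 ± 59.2, Sds 202 ± 62.1, Otc 174 ± 42.8 and Hal 164 ± 28.0 scaled RPKM in WT livers. Tat and Asl, Sds and Otc, and Otc and Hal were neighbours whose means differed by less than the larger SD of each pair. Nags was the weakest at 35.8 ± 3.78 scaled RPKM, and the steadiest: its WT libraries spanned 29.0 to 43.1. On the mm9 build, Cps1 spans chr1:67169600-67277833 (plus strand), Otc chrX:9829431-9898150 (plus), Ass1 chr2:31325727-31376192 (plus), Asl chr5:130487128-130501002 (minus), Arg1 chr10:24635014-24647276 (minus) and Nags chr11:102006827-102010791 (plus). Sds spans chr5:120926540-120933941 (plus), Hal chr10:92951513-92982049 (plus), Tat chr8:112514337-112523703 (plus) and Hpd chr5:123621816-123632734 (minus); all 10 are annotated as protein-coding and their values pool all exons. Ass1 has a near-identical copy, Gm5424, whose level was 5.29% to 6.80% of that of Ass1 in all 63 libraries, and how the counting split reads between the 2 genes is not known here.

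RefSeq promoters of build GRCm38.p6 matched 6 of the 10 genes (Otc, Ass1, Nags, Hal, Tat and Hpd); Cps1, Asl, Arg1 and Sds had none in the table. The 250 bases before the start are shown for Hal (chr10:93488518-93488767, plus strand) and Otc (chrX:10252055-10252304, plus strand), which fell furthest among these 6 in late KO livers, and for Hpd (chr5:123182724-123182973, minus strand), the gene that was higher in early KO livers. Capitals mark the only match to any of the 8 motifs searched.
Hal: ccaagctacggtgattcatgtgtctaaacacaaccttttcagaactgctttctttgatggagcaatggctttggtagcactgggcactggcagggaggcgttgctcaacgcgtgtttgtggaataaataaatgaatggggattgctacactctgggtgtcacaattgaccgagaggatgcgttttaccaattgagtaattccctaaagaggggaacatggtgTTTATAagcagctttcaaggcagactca
Otc: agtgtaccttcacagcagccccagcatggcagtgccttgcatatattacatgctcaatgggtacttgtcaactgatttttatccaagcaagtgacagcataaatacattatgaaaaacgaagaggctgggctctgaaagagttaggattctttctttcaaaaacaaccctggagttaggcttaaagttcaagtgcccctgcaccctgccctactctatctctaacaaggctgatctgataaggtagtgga
Hpd: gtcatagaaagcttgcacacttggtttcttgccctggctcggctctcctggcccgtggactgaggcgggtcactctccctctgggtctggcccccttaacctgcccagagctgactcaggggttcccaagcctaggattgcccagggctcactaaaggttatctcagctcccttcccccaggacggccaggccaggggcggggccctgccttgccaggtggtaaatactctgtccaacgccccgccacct
The capitals in Hal are TATAAA read on the opposite strand, 28 to 23 bases before the start; 12.4% of all 32851 RefSeq promoters of this length hold TATAAA on either strand. None of the 6 promoters held ACTACAA, the start of the element bound by THAP11 and ZNF143 (2.81% of all promoters), CCGGAAG for ETS factors (6.91%) or AAGATGG for YY1 (4.49%). None held TGACG of cAMP response elements (17.8%), TGTTCT of glucocorticoid response elements (16.1%), TTGCGCA for C/EBP (1.69%) or CAAAGTC for HNF4 (3.84%). All were searched on both strands. Promoter GC content was 45.6% for Hal, 43.6% for Otc and 62.8% for Hpd, against a median of 52.4% over all promoters.

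**Figure D1:**
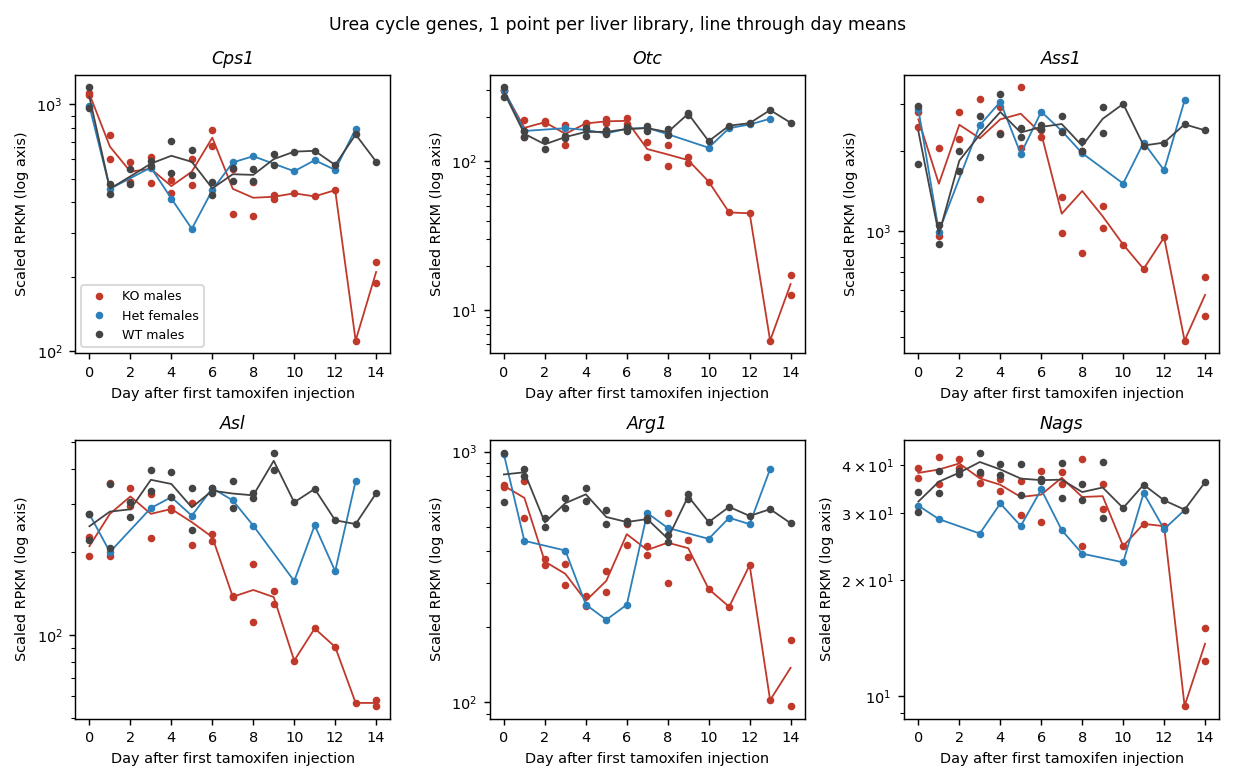
Scaled RPKM (log axis) of the 6 urea cycle genes by day after the first tamoxifen injection, with 1 point per liver library and lines through the day means of KO males (red), Het females (blue) and WT males (dark grey). On days 10 to 14 every KO point of Otc, at most 73.2, lies under every WT point, at least 137.

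**Figure D2:**
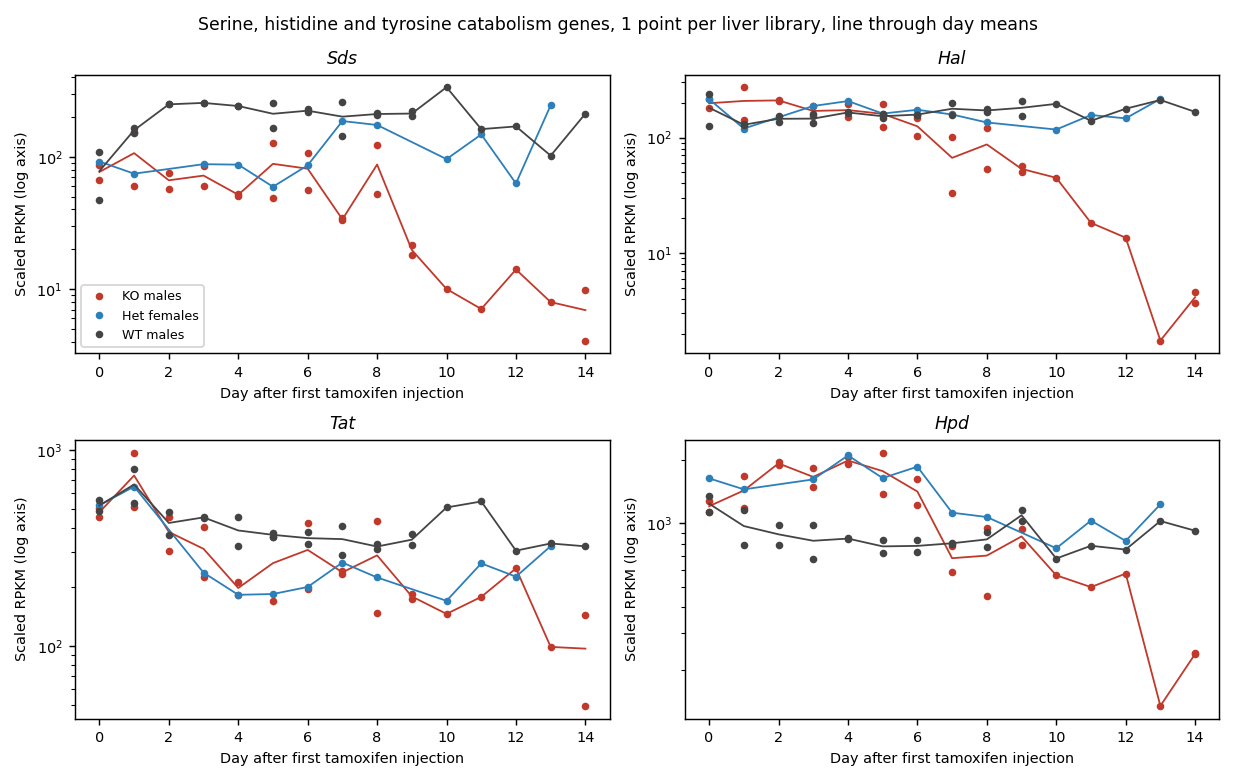
Scaled RPKM (log axis) of Sds, Hal, Tat and Hpd by day after the first tamoxifen injection, with 1 point per liver library and lines through the day means of KO males (red), Het females (blue) and WT males (dark grey). Hpd stands higher in KO than in WT livers on days 3 to 5 (1369 to 2168 against 673 to 977), and Sds lower from day 2.

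The first question was whether the genotypes differed before an effect of tamoxifen could build up. On day 0 none of the 10 genes was called higher or lower in KO than in WT livers; over all genes tested 0.0327% were called higher and 0.0327% lower. Cps1 had 1094 and 1107 scaled RPKM in KO livers and 968 and 1173 in WT livers, and Sds had 66.3 and 87.1 in KO livers and 47.0 and 109 in WT livers. The largest difference in size, that of Nags, was 0.25 ± 0.19 (limma, adjusted p = 0.949). With 2 libraries per genotype, standard errors reached 0.48 (Sds), and 850 of 12221 genes had an unadjusted p under 0.05.

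On days 1 to 2 Hpd was already higher and Sds lower in KO than in WT livers, and the other 8 genes were not called. Over all genes 9.05% were called higher and 1.82% lower. Hpd had 1182, 1679, 1884 and 1963 scaled RPKM in KO livers and 789, 791, 979 and 1149 in WT livers, without overlap (0.85 ± 0.20, adjusted p = 0.0045); every KO library lay above every WT library for 6.02% of all genes. Sds had 57.2, 59.8, 75.4 and 153 scaled RPKM in KO livers and 151, 166, 249 and 249 in WT livers; 3 of the 4 KO livers lay below all WT livers (-1.32 ± 0.34, adjusted p = 0.0089). The Sds call was lost in 5 of 8 fits without 1 library: those without KO day 1 replicate 1 (-0.99), KO day 2 replicate 2 (-1.23), WT day 1 replicate 2 (-1.29), WT day 2 replicate 1 (-1.32) or WT day 2 replicate 2 (-1.32). The batch of a library was taken from the number after the letter B in the authors' sample names. Fits of 1 batch alone used 1 mean per genotype and window instead of per day, so change within a window entered their spread. Within the 2 batches the Sds difference was -1.34 ± 0.72 and -1.32 ± 0.53, not called in either. That of Hpd was 0.58 ± 0.79 (not called) and 0.93 ± 0.22 (called). Otc was at 0.31 ± 0.11, short of the threshold (adjusted p = 0.067).

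On day 1 Cps1 and Otc stood lower in all 5 livers than in any of the 5 livers of day 0, whatever the genotype. This was not tested, and the share of all genes that separate these days in the same way was not counted. Cps1 had 597.7 and 749 scaled RPKM in KO livers, 454 in the Het liver and 434 and 475 in WT livers on day 1, against 968 to 1173 on day 0. Ass1 followed in 4 of the 5 livers: it had 959 and 2047 scaled RPKM in KO livers, 995 in the Het liver and 890.2 and 1054 in WT livers on day 1, and 1783 to 2943 in the livers of day 0. Saa1, an acute-phase gene, stood high on the same day, with 17767 and 20242 scaled RPKM in KO livers, 16179 in the Het liver and 20513 and 27486 in WT livers, against 48.9 to 97.8 in the 5 livers of day 0. Saa1 was chosen after its values were seen, and its part in the enzyme values was not tested.

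On days 3 to 5, after the last injection, Hpd was higher in KO livers while Arg1 and Sds were lower, each without overlap between the genotypes; 12.5% of all genes lay wholly above and 12.5% wholly below WT livers in this way. Over all genes 26.5% were called higher and 9.61% lower, beside which 1 of 10 higher and 2 of 10 lower are counts close to or below the background. Hpd ranged from 1369 to 2168 scaled RPKM in KO livers with a median of 1871, and from 673 to 977 with a median of 837 in WT livers (1.14 ± 0.16, adjusted p = 2e-06). Arg1, the last step of the cycle, ranged from 241 to 357 with a median of 284 in KO livers and from 515 to 718 with a median of 613 in WT livers (-1.07 ± 0.14, adjusted p = 1.2e-06). Sds ranged from 48.7 to 128 with a median of 56.1 in KO livers and from 165 to 257 with a median of 248 in WT livers (-1.82 ± 0.27, adjusted p = 5.7e-06). The highest KO value of Sds, 128 on day 5, was the nearest to the WT range. In the first and the second batch the differences were 1.30 and 0.97 for Hpd, -1.07 and -1.07 for Arg1, and -1.39 and -2.24 for Sds, of which only Sds in the first was not called. All 3 calls held in each of 12 fits without 1 library.

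The other genes of tyrosine breakdown and the cycle moved less on days 3 to 5. Tat, the step before Hpd, had 169 to 402 scaled RPKM in KO livers and 323 to 455 in WT livers; 4 of the 6 KO livers lay between 169 and 223. Its difference passed on the centred scale alone (-0.71 ± 0.27, adjusted p = 0.030; -0.42 on the deposited scale). Without KO day 5 replicate 1 it passed on both (-0.89). Ass1 (-0.02 ± 0.23), Hal (0.10 ± 0.22), Nags (-0.14 ± 0.11), Cps1 (-0.20 ± 0.12), Asl (-0.30 ± 0.15) and Otc (0.16 ± 0.09) were not called. Without KO day 3 replicate 1 the Otc difference of 0.23 was called.

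**Figure D3:**
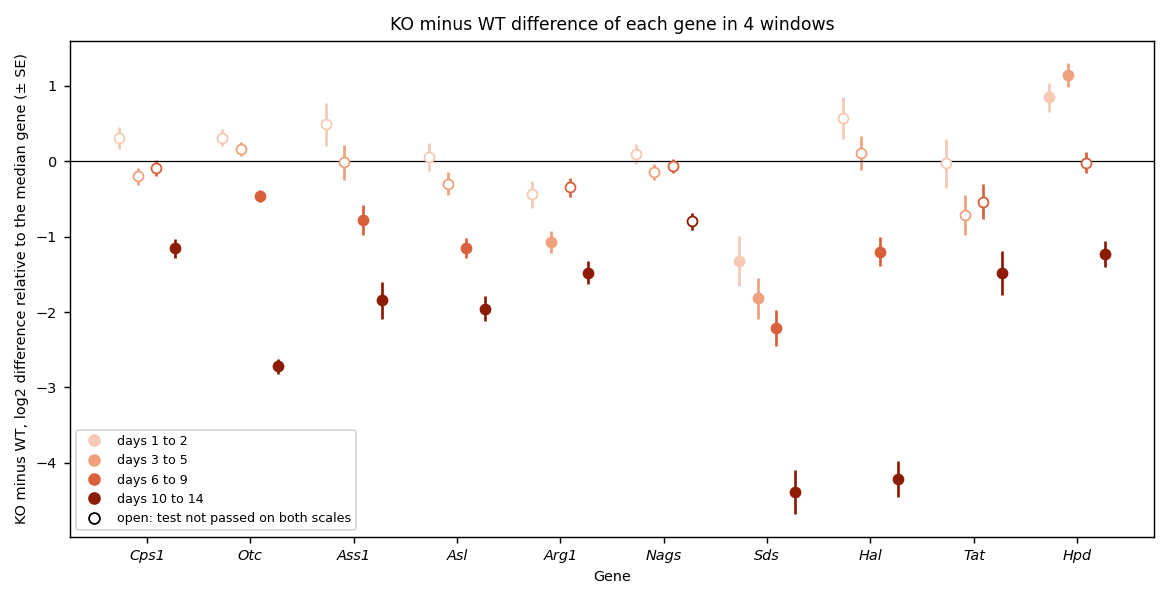
KO minus WT log2 difference (± SE) of each gene relative to the median gene on days 1 to 2, 3 to 5, 6 to 9 and 10 to 14, from light to dark; filled points passed the test on both scales and open points did not. Hpd is at 1.14 on days 3 to 5 and at -0.02 on days 6 to 9, and Sds and Hal reach -4.38 and -4.21 on days 10 to 14.

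On days 6 to 9 the pattern changed: Hpd did not differ detectably between the genotypes, the Arg1 difference was smaller, and Otc, Ass1, Asl and Hal joined Sds below WT livers. No gene of the 10 was called higher and 5 were called lower, against 35.1% and 18.8% of all genes. Asl, which releases fumarate from argininosuccinate, ranged from 111 to 233 scaled RPKM in KO livers with a median of 142, and from 289 to 459 with a median of 334 in WT livers (-1.15 ± 0.13, adjusted p = 4.2e-08). Hal ranged from 33.0 to 147 with a median of 78.4 in KO livers and from 155 to 207 with a median of 163 in WT livers (-1.20 ± 0.19, adjusted p = 6.8e-06). The genotypes did not overlap for Asl, Hal and Sds; all KO libraries lay below all WT libraries for 12.5% of all genes.

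Sds was again below WT livers on days 6 to 9, with 18.1 to 122 scaled RPKM and a median of 43.2 in KO livers, against 144 to 258 and a median of 214 in WT livers (-2.22 ± 0.24, adjusted p = 1.3e-08). Ass1, whose step consumes aspartate, ranged from 826 to 2380.5 with a median of 1289 in KO livers and from 1994 to 2926 with a median of 2377 in WT livers (-0.78 ± 0.20, adjusted p = 0.0014). The 3 KO livers within the WT range of Ass1 were both of day 6 and 1 of day 8. The copy Gm5424 gave a like difference (-0.79 ± 0.20). Otc ranged from 93.3 to 196 with a median of 118 in KO livers and from 151 to 213 with a median of 166 in WT livers (-0.46 ± 0.08, adjusted p = 2.2e-05), and the 2 KO livers of day 6 lay within the WT range. Without KO day 7 replicate 2 the Otc difference was -0.42 and no longer called.

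Arg1 ranged from 299 to 568 scaled RPKM in KO livers and from 436 to 676 in WT livers on days 6 to 9, and passed on the centred scale alone (-0.35 ± 0.12, adjusted p = 0.017). Its difference was smaller in size than on days 3 to 5 by 0.72 ± 0.19 (adjusted p = 0.0065 for the change). Hpd had 453 to 1613 in KO livers and 728 to 1160.0 in WT livers; the 2 KO livers of day 6, with 1214 and 1613, still lay above all WT livers, while those of day 7, with 587 and 776, did not. The change of the Hpd difference between the windows was -1.16 ± 0.21 (adjusted p = 0.00022), and Hal (-1.31 ± 0.30), Asl (-0.85 ± 0.20) and Otc (-0.62 ± 0.12) changed downward as well. That made 1 upward and 4 downward changes among the 10 genes, against 4.71% and 11.9% of all genes.

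Cps1, the entry enzyme of the cycle, and its activator enzyme Nags did not differ detectably on days 6 to 9 (-0.09 ± 0.10 and -0.07 ± 0.09). In a fit of each day, Cps1 was called higher on day 6 (0.68 ± 0.20, adjusted p = 0.013). It had 678 and 786 scaled RPKM in KO livers and 427 and 485 in WT livers. Hpd was also called higher and Sds lower on that day. Day 6 was singled out from the contrasts of every day, and the p-value was adjusted over genes but not over days. Over all genes 1972 were higher and 1885 lower on the centred scale that day, and 1395 and 1145 on the deposited scale. Over days 6 to 9 together, Tat passed on the centred scale alone (-0.54 ± 0.23, adjusted p = 0.045), and on both scales with the replicate number as a block (adjusted p = 0.014). Within the first and the second batch the differences were -2.06 and -2.31 for Sds, -1.02 and -1.23 for Asl, -1.08 and -1.28 for Hal, -0.77 and -0.79 for Ass1, and -0.28 and -0.57 for Otc; Hal, Ass1 and Otc were not called in the first batch.

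Libraries of days 6 to 9 differed in Alb, the albumin gene whose promoter drives the Cre. KO day 6 replicate 2 and both KO livers of day 8 had 30769.8 to 41591 scaled RPKM of Alb, against 4531 to 6043 in the other 5 KO livers of these days. Without those 3 libraries, an alternative chosen after seeing the data, Sds was at -2.65, Hal at -1.32, Asl at -1.13, Ass1 at -0.82 and Otc at -0.42 below WT livers, and Otc alone lost its call. Tat moved to -0.79 and Arg1 to -0.47 on the centred scale.

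On days 10 to 14 all 10 genes were lower in every KO liver than in every WT liver on the centred scale. So were 21.6% of all genes, and 9 of the 10 genes were called lower. Over all genes 38.6% were called higher and 11.1% lower on both scales, while 4090 of 12221 genes were lower on the centred scale. Hal, the entry to histidine breakdown, ranged from 1.74 to 44.8 scaled RPKM with a median of 9.07 in the 6 KO livers, against 139.6, 167, 178, 196 and 212 in the WT livers (-4.21 ± 0.24, adjusted p = 6.6e-14). Sds ranged from 4.08 to 14.0 with a median of 8.87 in KO livers, while WT livers had 102, 162, 169, 212 and 335 (-4.38 ± 0.29, adjusted p = 1.5e-12). Sds had reached this level by day 10, with 10.0 scaled RPKM in the KO liver, whereas Hal went on falling from 44.8 on day 10 to 18.2 on day 11, 13.6 on day 12 and 1.74 on day 13 in KO livers, with 3.71 and 4.57 on day 14. These KO libraries come from different mice, 1 per day before day 14. A genotype with 1 library on a day adds nothing to the estimated spread. The standard errors and p-values of this window therefore rest on the replicates of days 0 to 9 and the 2 KO livers of day 14. They do not measure how alike the late livers were.

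Otc fell furthest within the urea cycle, with 6.28 to 73.2 scaled RPKM and a median of 31.1 in KO livers on days 10 to 14, while WT livers had 137, 174, 180.5, 182 and 221 (-2.72 ± 0.10, adjusted p = 3.1e-17). Asl ranged from 55.4 to 106 in KO livers and from 253 to 339 in WT livers (-1.96 ± 0.16, adjusted p = 1.0e-10). Ass1 ranged from 388 to 946 in KO livers and from 2089.6 to 2993 in WT livers (-1.85 ± 0.25, adjusted p = 3.2e-07). For these 3 genes the highest KO liver stayed below the lowest WT liver by a wide gap.

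Arg1 ranged from 96.6 to 352 scaled RPKM in KO livers and from 518 to 602 in WT livers on days 10 to 14 (-1.48 ± 0.15, adjusted p = 5.3e-09). Tat ranged from 49.4 to 249 in KO livers and from 306 to 546 in WT livers (-1.48 ± 0.29, adjusted p = 6.2e-05). Hpd ranged from 135 to 576 in KO livers and from 679 to 1024 in WT livers (-1.23 ± 0.17, adjusted p = 5.8e-07). The gap between the genotypes was smaller for Tat and Hpd, and Hpd was now below WT livers after being above them on days 1 to 5. Cps1 ranged from 110.2 to 449 in KO livers and from 567 to 754 in WT livers (-1.16 ± 0.13, adjusted p = 1.2e-08). Nags ranged from 9.41 to 28.1 in KO livers and from 30.6 to 36.0 in WT livers and passed on the centred scale alone (-0.80 ± 0.12; -0.03 on the deposited scale).

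For 5 of the 10 genes the KO minus WT difference moved downward into the last window. Between days 6 to 9 and days 10 to 14 the difference changed by -3.00 ± 0.31 for Hal, -2.26 ± 0.13 for Otc, -2.17 ± 0.38 for Sds, -1.21 ± 0.22 for Hpd and -1.13 ± 0.20 for Arg1, all called; 5 of 10 genes stand against 4.4% of all genes called lower and 18.4% higher. No gene of the 10 was called in the change from days 1 to 2 to days 3 to 5, where 2.09% and 1.75% of all genes were called higher and lower. These contrasts share the libraries of the window between them.

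The late window is set partly by days 13 and 14, whose KO libraries have the highest deposited median gene. Over days 10 to 12 alone, an alternative chosen after seeing the data, Sds (-4.39), Hal (-2.92), Asl (-1.70), Otc (-1.61), Ass1 (-1.49), Tat (-1.24) and Arg1 (-0.96) were still called lower, while Cps1 (-0.50) and Hpd (-0.43) were not; Nags, at -0.30, no longer passed on the centred scale either (adjusted p = 0.101). Cps1 had 423 to 449 scaled RPKM in the 3 KO livers of those days and 110.2, 189 and 229.5 in those of days 13 and 14. Among the fits without 1 library, Cps1 lost its call without KO or WT day 13 (-0.75 each), WT day 14 (-1.07) or KO day 14 replicate 1 (-1.13), and Hpd without KO or WT day 13 (-0.81 each) or WT day 14 (-1.05). Tat lost its call without KO or WT day 10 (-1.40 each), KO or WT day 11 (-1.45 each) or WT day 14 (-1.37). All libraries of days 10 to 14 belong to the first batch. In a fit of that batch alone, with 1 mean per genotype and window, Cps1 (-1.23) and Hpd (-1.32) were not called. The other 7 were.

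The difference in Sds arose with a change in WT livers. Against day 0, Sds rose in WT livers by 1.71 ± 0.39, 1.55 ± 0.38 and 1.35 ± 0.40 in the windows of days 3 to 5, 6 to 9 and 10 to 14 (adjusted p = 0.0027, 0.0022 and 0.012), while it changed by -0.20 ± 0.39 and -0.76 ± 0.38, neither called, in KO livers until day 9. In KO livers it fell below its own day 0 on days 10 to 14 (-3.13 ± 0.39, adjusted p = 1.6e-07). Of the 10 genes Sds was the only one called higher in WT livers in each of these windows, against 12.4%, 18% and 16% of all genes. Otc was the only one called lower, on days 3 to 5 (-0.92 ± 0.13; 0.794% of all genes, and 1.32% and 0.884% in the later windows). Cps1 was lower in WT livers than on day 0 by -0.86, -1.03 and -0.74 in the 3 windows on the centred scale alone. All windows are set against the same 2 WT or 2 KO livers of day 0, and the WT livers of day 0 had 47.0 and 109 scaled RPKM of Sds.

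In KO livers against their own day 0, Hpd rose (0.57 ± 0.23, adjusted p = 0.047) and Arg1 fell (-1.32 ± 0.20, adjusted p = 1.6e-05) on days 3 to 5, when 22.4% of all genes were called higher and 2.56% lower. On days 6 to 9 only Otc was called (-1.24 ± 0.13; 5.41% of all genes called lower and 30.6% higher). On days 10 to 14, when 4.89% of all genes were called lower and 35.6% higher, Hal (-4.37), Otc (-3.47), Sds (-3.13), Cps1 (-1.95) and Arg1 (-1.87) had fallen on both scales. The remaining 5 passed on the centred scale alone, at -1.97 for Ass1, -1.78 for Hpd and Tat, -1.47 for Asl and -1.01 for Nags; for Nags the deposited scale had the other sign (0.42).

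Het females of days 4 to 6 had levels of Arg1, Sds and Hpd near those of KO males of days 3 to 5, and those of days 7 and 8 had levels within the WT range of days 6 to 9. Arg1 had 403, 245 and 213 scaled RPKM in Het livers on days 3, 4 and 5 and 245 on day 6, within or near the 241 to 357 of KO livers of days 3 to 5, and then 569 and 496 on days 7 and 8. Sds had 59.3 to 87.8 in Het livers of days 3 to 6, and 186 and 174 on days 7 and 8. Hpd had 1615 to 2099 on days 3 to 6 and 1122 and 1069.8 on days 7 and 8. Het livers of days 0 to 1 already had 1448 to 1634 of Hpd and 74.4 to 91.9 of Sds, and 441 to 975 of Arg1. The Hpd values of days 7 and 8 also lay within the KO range of days 6 to 9 (453 to 1613). So did the Arg1 value of 496 (KO range 299 to 568), whereas both Sds values lay above the KO range (18.1 to 122). For all 3 genes the step lay between the livers of days 6 and 7, with 1 mouse per day.

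Against Het days 0 to 1, only Tat was called in Het livers, and it was lower in all 3 windows. It had 522 and 650.0 scaled RPKM on days 0 and 1, 182, 184 and 236 on days 3 to 5, 199.8 to 266 on days 6 to 8 and 169.9 to 323 on days 10 to 13. The differences were -1.55 ± 0.25, -1.35 ± 0.25 and -1.29 ± 0.24 (adjusted p = 0.016, 0.0071 and 0.0049), and 0.529%, 0.445% and 0.503% of all genes were called lower, with 3.56%, 9.25% and 13.3% higher. The call was lost on days 3 to 5 without Het day 4 (-1.48) or day 5 (-1.49), and on days 10 to 13 without Het day 1 (-1.13). On days 6 to 8 it was lost without Het day 1 (-1.19), 3, 5, 6, 8, 11 or 12 (-1.26 to -1.35). Arg1 on days 3 to 5 was at -1.25 ± 0.45, short of the threshold (adjusted p = 0.119).

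**Figure D4:**
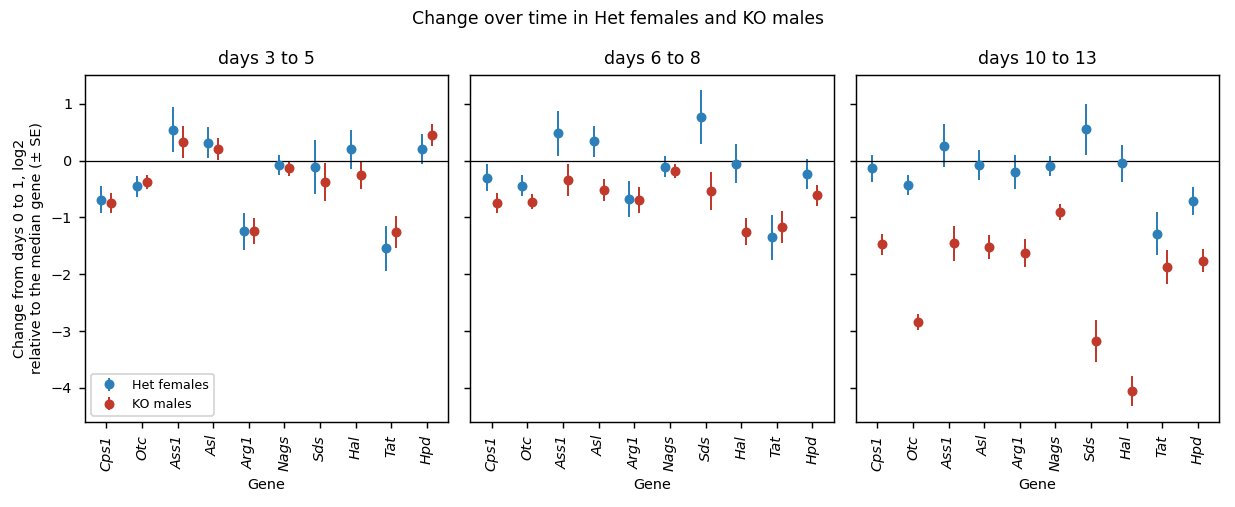
Change from days 0 to 1 (log2 relative to the median gene, ± SE) of each gene in Het females (blue) and KO males (red) on days 3 to 5, 6 to 8 and 10 to 13, from 1 fit over all 63 libraries. The points lie together on days 3 to 5 and are furthest apart on days 10 to 13 for Hal, where the Het change minus the KO change is 4.02.

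Het and KO livers were then set side by side in 1 fit of all 63 libraries, each against its own days 0 to 1. In that fit Tat was called lower in Het livers on days 3 to 5 (-1.55; 0.897% of all genes called lower and 8.38% higher) and none of the 10 genes on days 6 to 8 (0.517% and 12.7%) or days 10 to 13 (0.557% and 15.9%). In KO livers Arg1 (-1.23) and Tat (-1.25) were lower and Hpd (0.45) higher on days 3 to 5 (2.66% of all genes lower and 25.7% higher), and Hal (-1.25) was lower on days 6 to 8 (5.59% lower and 32.4% higher). On days 10 to 13 Hal (-4.06), Sds (-3.18), Otc (-2.84) and Hpd (-1.76) were lower in KO livers (5.24% lower and 37.4% higher).

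The difference between the 2 changes was tested in the same fit and shares its libraries. On days 3 to 5 none of the 10 genes differed, with estimates between -0.30 ± 0.48 (Tat) and 0.45 ± 0.42 (Hal); 0.743% of all genes were called higher and 0.46% lower. Standard errors reached 0.58 (Sds), so a moderate difference would not have been detectable. On days 6 to 8 Hal was called (1.20 ± 0.42, adjusted p = 0.038; 8.49% of all genes higher and 3.44% lower). It had 174, 158 and 135 scaled RPKM in Het livers of days 6, 7 and 8, and 103 and 147, 100.4 and 33.0, and 53.6 and 121 in KO livers of the same days. On days 10 to 13 the Het change exceeded the KO change for Hal (4.02 ± 0.42), Sds (3.73 ± 0.58), Otc (2.41 ± 0.23), Ass1 (1.72 ± 0.49) and Asl (1.45 ± 0.33), with adjusted p from 7.7e-10 to 0.0050. These 5 of 10 stand against 6.44% of all genes called higher and 19.8% lower. Cps1 (1.34), Arg1 (1.43), Nags (0.80) and Hpd (1.05) passed on the centred scale alone, and Tat did not pass (0.59 ± 0.48). Sds in Het livers of days 10 to 13 was uneven, with 95.9, 147, 62.8 and 245 scaled RPKM. Alb was uneven in the same livers, with 37745, 5057, 36263 and 5274, and Sds was lower on the days of high Alb. Het livers had 26423 of Alb on day 3 and 3378 to 4508 on days 4 to 8. The Het windows of days 3 to 5 and 10 to 13 thus pooled livers high and low in Alb. The KO window of days 6 to 8 did so too. The bearing of Alb on these differences was not tested. Sex and genotype cannot be told apart in this comparison, and batch differs too: all 12 Het libraries belong to the first batch, whereas the KO libraries come from both batches up to day 8 and from the first on days 10 to 13.

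Among 82 tested genes of 9 lists of neighbouring enzymes and regulators, 30 were higher and 8 lower in KO than in WT livers on days 3 to 5, 18 and 21 on days 6 to 9, and 11 and 33 on days 10 to 14. Over all genes the shares called higher and lower were 26.5% and 9.61%, 35.1% and 18.8%, and 38.6% and 11.1% in these windows, so the lower calls of days 3 to 5 were near the background. Their median difference in these windows was 0.06, -0.15 and -0.81, against 0.04, 0.06 and 0.08 over all genes tested. In the 6 lists of amino acid catabolism, with 51 tested genes, 17 were higher and 5 lower on days 3 to 5 and 3 and 25 on days 10 to 14. None of these counts includes the 10 genes themselves.

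**Figure D5:**
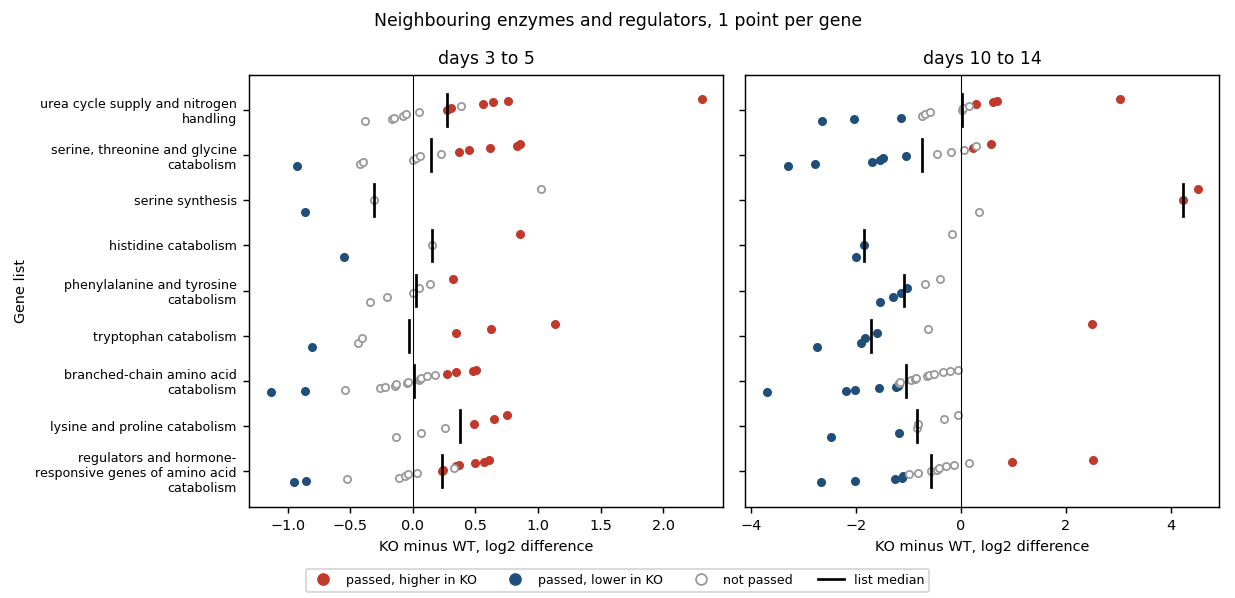
KO minus WT log2 difference relative to the median gene of every tested gene of 9 lists on days 3 to 5 (left) and days 10 to 14 (right); red and dark blue points passed the test as higher and lower in KO, open points did not pass, and black bars are list medians. List medians lie between -0.31 and 0.37 on the left; on the right those of all 6 catabolism lists lie below 0, while Phgdh and Psat1 of serine synthesis stand at 4.52 and 4.23.

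Of 13 genes that supply the urea cycle or handle nitrogen, 6 were higher and none lower in KO livers on days 3 to 5. On days 10 to 14, 4 were higher and 3 lower. Over all genes 26.5% were called higher and 9.61% lower in the first of these windows, and 38.6% and 11.1% in the last. Glud1, which releases ammonia from glutamate, was higher on days 3 to 5 (658.6 ± 31.3 scaled RPKM in KO and 390 ± 44.3 in WT livers; 0.76 ± 0.08) and stayed higher on days 10 to 14 (0.69 ± 0.09). Glul, the glutamine synthetase of hepatocytes around the central vein, was higher on days 3 to 5 and 6 to 9 (0.56 and 0.44) but not on days 10 to 14 (0.16 ± 0.12). Gls2, the liver glutaminase, fell with the late genes, to 38.4 ± 18.7 in KO livers against 151 ± 12.8 in WT livers on days 10 to 14 (-2.02 ± 0.22). Car5a, which supplies bicarbonate to CPS1, had 11.0 ± 10.2 in KO and 50.4 ± 6.71 in WT livers on those days (-2.64 ± 0.16).

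Of 12 tested genes of serine, threonine and glycine catabolism, 5 were higher and 1 lower on days 3 to 5, beside 26.5% and 9.61% of all genes. On days 10 to 14, 2 were higher and 6 lower, beside 38.6% and 11.1% of all genes. Amt of the glycine cleavage system had 19.1 ± 5.94 scaled RPKM in KO and 57.4 ± 5.05 in WT livers on days 6 to 9 (-1.64 ± 0.13) and reached -3.29 ± 0.16 on days 10 to 14. Sdsl, a relative of Sds, was lower from days 3 to 5 on (-0.93, -1.27 and -1.70), and Dld, a subunit that Amt works with, was lower on days 6 to 9 and 10 to 14 (-0.87 and -1.05). Agxt2, a mitochondrial aminotransferase, was higher in all 3 windows (0.45, 1.07 and 0.59). Psat1 and Phgdh, which make serine from a glycolytic intermediate, were called higher in KO livers on days 6 to 9 (1.13 and 1.46) and 10 to 14, while on days 3 to 5 Psat1 was lower (-0.86) and Phgdh was not called. In the last window Psat1 had 13.7 ± 11.4 scaled RPKM in KO and 0.591 ± 0.374 in WT livers (4.23 ± 0.23). Phgdh had 5.10 ± 5.27 in KO and 0.161 ± 0.128 in WT livers (4.52 ± 0.48). Both WT levels were low, as 1 read over 1 kb is 0.0223 to 0.0725 RPKM in these WT libraries. The KO SD of Phgdh exceeded its KO mean.

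Within histidine breakdown Uroc1, the step after Hal, was lower in KO livers in all 3 windows (-0.55, -0.64 and -1.99), while Ftcd, the last step, was higher on days 3 to 5 and 6 to 9 (0.86 and 0.40) and not called on days 10 to 14 (-0.16 ± 0.11). Hgd, the step of tyrosine breakdown after Hpd, was lower on days 6 to 9 and 10 to 14 (-0.45 and -1.28). In branched-chain catabolism Acad8, which acts on valine products, was lower from days 3 to 5 on, with 4.66 ± 1.95 scaled RPKM in KO and 23.1 ± 2.33 in WT livers on days 6 to 9 (-2.41 ± 0.11). Mccc2, a subunit of a leucine enzyme, was lower on days 6 to 9 (-0.66) and 10 to 14 (-2.19), while Auh (-0.63) and Bckdk (-1.57) were called lower on days 6 to 9 only.

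Among 6 lysine and proline genes, Prodh2 was higher on days 3 to 5 (0.75 ± 0.11) and then lower (-0.56 and -2.47). Aass, the first enzyme of lysine breakdown, was lower on days 6 to 9 and 10 to 14 (-0.63 and -1.18), and Prodh on days 6 to 9 (-0.64); Aldh7a1 was higher on days 3 to 5 and 6 to 9 (0.65 and 0.53). Of 6 tryptophan genes 3 were higher and 1 lower on days 3 to 5. On days 6 to 9, 1 was higher and none lower. On days 10 to 14, 1 was higher and 4 lower, and their summed level was 148 to 655 scaled RPKM in KO and 838 to 1288 in WT livers. Over all genes 26.5%, 35.1% and 38.6% were called higher in these 3 windows, and 9.61%, 18.8% and 11.1% lower. The higher tryptophan gene of the last window, against most of its list, was Acmsd, which was higher in all 3 windows (1.14, 0.96 and 2.49). Of 15 regulators and hormone-responsive genes, 7 were higher and 2 lower on days 3 to 5, and 2 higher and 5 lower on days 10 to 14, beside 26.5% higher and 9.61% lower, and 38.6% and 11.1%, over all genes. Fkbp5, a glucocorticoid-induced gene, was higher in all 3 windows (0.57, 0.50 and 0.97), whereas Pck1, the gluconeogenic enzyme that fasting hormones induce, was lower (-0.85, -0.77 and -2.66). Igfbp1 was higher on days 6 to 9 (1.78 ± 0.33) and 10 to 14 (2.51 ± 0.41).

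Cell type markers were compared in the same way. Over all genes 26.5% were called higher and 9.61% lower on days 3 to 5. The shares were 35.1% and 18.8% on days 6 to 9, and 38.6% and 11.1% on days 10 to 14. Of 11 tested hepatocyte markers 1 was higher and 3 lower in KO livers on days 3 to 5, 2 higher and 2 lower on days 6 to 9, and none higher and 5 lower on days 10 to 14. Their median difference on days 10 to 14 was -1.00, beside -1.66 for the 10 genes. Their summed level was 11757 to 30523 scaled RPKM in KO and 89991 to 101695 in WT livers on days 10 to 14, but it was lower in KO livers before that too, with 70988 to 77303 in KO and 93747 to 100334 in WT livers on day 0, 42336 to 49664 in KO and 68329 to 83372 in WT livers on days 1 to 2, and 36857 to 43917 in KO and 92967 to 113911 in WT livers on days 3 to 5. Without Alb the genotypes overlapped until days 3 to 5. That sum was 45764 to 50220 in KO and 47351 to 48663 in WT livers on day 0. On days 1 to 2 it was 39740 to 47953.5 in KO and 38156 to 55302 in WT livers. On days 3 to 5 it was 32218 to 40711 in KO and 27814 to 39815 in WT livers. On days 10 to 14 it was 8633 to 26209.8 in KO and 28464 to 40163 in WT livers. Of these 10 markers 4 were called lower in that window, and all 10 differences lay between -2.01 and -0.29 with a median of -1.00. The 10 stellate cell markers, a cell type that makes scar collagen, were all higher on days 10 to 14 (summed 206 to 340 scaled RPKM in KO and 133 to 161 in WT livers) and 9 of 10 on days 6 to 9. Of 7 duct cell markers 5 were higher on days 10 to 14 (summed 78.4 to 411 in KO and 38.7 to 56.2 in WT livers). Of 9 periportal hepatocyte markers 3 were higher and 5 lower (median -1.57), and of 10 pericentral ones 3 and 3 (median -0.06), on days 10 to 14. The summed periportal level was 733 to 1835 (median 1392) in KO and 2316 to 2660 (median 2596) in WT livers. The summed pericentral level had a lower median in KO livers as well. It was 867 to 3008 (median 2062) in KO and 2150 to 5689 (median 3875) in WT livers. In the same window 6 of 11 macrophage and 3 of 8 endothelial markers were higher, the endothelial count being near the share of all genes. None of 5 neutrophil or 8 T, B and NK cell markers was called. Cela1 of pancreas was not called and Car3, abundant in fat, was lower (-4.22). None of the hepatocyte, duct or stellate markers was listed at 0 in any library, and the part of a changed cell composition in the enzyme values was not tested. Arg1 is also made by alternatively activated macrophages; of 3 tested markers of those cells, Chil3 was higher (2.15) and Mrc1 and Cd163 were not called on days 10 to 14, with summed levels of 19.5 to 28.8 in KO and 14.0 to 32.5 in WT livers.

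As a description, the genes whose centred values followed each enzyme most closely over the 51 male libraries were listed by Pearson's r; all points share the same libraries, scaling and genotypes. Hal was followed by Mccc2 (r = 0.979) and Agxt (0.970), Otc by Haao (0.966), and Sds by Cbs (0.933) and AI462493 (0.921). Hpd was followed by Gnmt (0.953) and Slc38a3 (0.951), Asl by Suox (0.947) and Fpgs (0.947), and Arg1 by Plg (0.926) and Baat (0.925). Ass1 was followed by its copy Gm5424 (0.994) and then by Gls2 (0.927). For Nags they were Cideb and Lrrc3 (both 0.911), for Cps1 Hsd3b6 (0.904) and Hsd3b3 (0.902), and for Tat Slc25a38 (0.880) and Mtmr4 (0.862), the loosest of these matches.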

How the data were processed

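Liver poly(A) RNA of individual mice was sequenced as stranded single-end reads of 50 nt, per the labels' protocols. The authors deposited log2 RPKM (read density per gene length and library size, plus 8.90e-05) for 15616 genes; TopHat2 2.0.13, Bowtie 1.1.2, edgeR and mm9 are named in the submitters' processing notes. A deposited sample description table (other values: day, genotype and design codes) gave the sample names. Their number after the letter B was taken as the batch. Values checked as whole reads (98.0% of 6510 low values within 0.1) gave the estimated depths.

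Each library was centred on the median of the 12221 genes with log2 of at least 0 in at least 4 male libraries. limma 3.58.1 in R 4.3.3 was fitted to all genes with 1 mean per genotype and day (21 residual degrees of freedom in 51 males; 8 in 12 females, with 1 mean per window; 29 over all 63), averaging days within windows, with Benjamini-Hochberg adjustment over all genes tested; it was tested on simulated data. A call needs an adjusted p under 0.05 and 1 sign on both the centred and deposited scales. The unnumbered KO library of day 14 is known only by its group. The members and gene lists were chosen with earlier results of these data known; the text names all 10 enzymes and, per pathway list, up to 4 called genes with the smallest p on days 6 to 9, and for each enzyme the 2 genes with the highest Pearson's r, of which 1 is not reported here. Replicate numbers mark different batches on 8 of the 10 replicated days, which pairs KO and WT mice by batch; deviations of same-numbered mice correlated by -0.06 to 0.29. Alternatives were other scalings, constants, filters, batches (with 1 mean per genotype and window), a replicate block, and leaving out each library.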

Additional observations from a re-analysis of the deposited data

Results flagged for a closer look

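In 16 results the effect itself was tested and found to differ between times or between genotypes; the values are log2 and relative to the median gene. The KO minus WT difference moved between days 3 to 5 and days 6 to 9 by 0.72 for Arg1, -0.62 for Otc, -0.85 for Asl, -1.16 for Hpd and -1.31 for Hal. Between days 6 to 9 and days 10 to 14 it moved by -1.13 for Arg1, -1.21 for Hpd, -2.17 for Sds, -2.26 for Otc and -3.00 for Hal. Arg1 is the only one of the 10 genes with a called change in each direction: its gap to WT livers narrowed in the middle window and widened again in the last. The Het change minus the KO change was 1.20 for Hal on days 6 to 8. On days 10 to 13 it was 4.02 for Hal, 3.73 for Sds, 2.41 for Otc, 1.72 for Ass1 and 1.45 for Asl. No genotype had more than 2 libraries on a day, so single libraries could not be tested as outliers within a group.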

How the results depend on the processing

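Among the 10 enzymes, single-gene calls were lost on leaving out 1 library (28 cases), in the first batch alone (8), in the second alone (1), over days 10 to 12 alone (2), without the 3 KO libraries high in Alb (1) and without a filter (1), and other scalings added calls or turned signs. On the deposited scale alone 2 genes were called higher on days 1 to 2 and 2 on days 3 to 5, and in Het livers 5, 6 and 5 genes were called higher on days 3 to 5, 6 to 8 and 10 to 13. There the sign turned for Nags on days 3 to 5 (0.56), for Hal (0.77), Nags (0.72) and Hpd (0.58) on days 6 to 8, and for Hal (0.61), Nags (0.56) and Asl (0.58) on days 10 to 13; the deposited scale holds the upward shift of the median gene. Scaling to summed RPKM gave 2 higher on days 1 to 2, 2 higher on days 3 to 5 and 2 higher in Het livers on days 6 to 8. Adding 1 to RPKM gave 2 higher on days 1 to 2. Quantile normalization gave 2 lower on days 1 to 2 and 4 lower on days 3 to 5. Without a filter no gene was lower in Het livers on days 6 to 8. The first batch alone gave 0 higher and 0 lower on days 1 to 2. It gave 1 lower on days 3 to 5 and 2 lower on days 6 to 9. The second batch gave 0 lower on days 1 to 2. Both batch fits had fewer libraries and 1 mean per genotype and window, so change within a window entered their spread. Leaving out 1 library gave 1 to 2 higher and 0 to 1 lower on days 1 to 2, 1 to 2 higher and 2 to 3 lower on days 3 to 5, 4 to 5 lower on days 6 to 9, 6 to 9 lower on days 10 to 14, and 0 to 1 lower in each Het window. The replicate block made Tat on days 6 to 9 called (adjusted p = 0.014) and changed no other call of KO against WT. Over all genes, the deposited scale called 2029 higher and 224 lower on days 1 to 2, 5797 and 1174 on days 3 to 5, 5356 and 2301 on days 6 to 9 and 8769 and 1353 on days 10 to 14, where both scales together called 1106 and 223, 3236 and 1174, 4285 and 2301, and 4714 and 1353. Causes of these shifts were not tested.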
